A study of Homo sapiens with 4 samples.

Results

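The ATP-binding cassette (ABC) transporter genes were taken as every gene in the expression table whose symbol is ABC, a letter from A to G and a number. This gave 43 of the 18398 genes measured, chosen by symbol with no measured value. There were 10 genes of subfamily A, 9 of B, 11 of C, 4 of D, 1 of E, 3 of F and 5 of G. ABCA2, ABCA10 and ABCC13 are not analysed here, and TAP1, TAP2 and CFTR, whose proteins belong to the family under other names, are given separately at the end. RNA was sequenced from Huh1 and Huh7, both established human hepatocellular carcinoma (HCC) cell lines. Each line was transfected with 15 nM of a negative control siRNA (NCsiRNA, which matches no endogenous transcript) or of CDCA8-1siRNA and harvested after 48 h. CDCA8-1siRNA targets CDCA8, a subunit of the chromosomal passenger complex that steers chromosome segregation and cytokinesis. There was 1 library for each line and siRNA, 4 in all, so no difference here has a replicate check, and the knockdown rests on 1 siRNA sequence.

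ABC proteins use ATP to move a substrate across a membrane. A full-length transporter carries a pair of membrane domains and a pair of ATP-binding domains in 1 chain, while shorter members, such as those of subfamilies D and G and part of B, have to dimerize to work. In hepatocytes, members at the canalicular membrane build the bile by pumping out bile salts, phospholipid, sterols and conjugated organic anions, and members at the basolateral membrane return conjugates to the blood. Other members serve high-density lipoprotein formation, mitochondria, peroxisomes and lysosomes, and those of subfamilies E and F have no membrane domains and act on ribosomes.

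The libraries held 12201000 to 13381500 reads, as recovered from the steps between low values. CDCA8 stood at 24.1 RPKM (reads scaled to transcript length in kilobases and to library size) with NCsiRNA and 5.86 with CDCA8-1siRNA in Huh1, so 24.3% was left. In Huh7 it stood at 51.5 and 7.36 RPKM, so 14.3% was left. All 10 hepatocyte markers examined reached 1 RPKM in both lines, ALB at 721 RPKM or more in every library. The endothelial markers measured, VWF and CDH5, stayed at 0.00923 RPKM or below. The oncofetal hepatocyte markers AFP and GPC3 were both higher in Huh7. AFP stood at 24.8 and 27.5 RPKM in Huh1 and at 865 and 715 in Huh7. Some markers of other cells also separated the lines. Of 4 white blood cell markers only CD68 reached 1 RPKM, at 23.3 and 16.5 in Huh1 and 3.71 and 3.73 in Huh7. The summed level of 4 stellate or fibroblast markers was 0.128 and 0.192 RPKM in the Huh1 libraries and 141 and 187 in the Huh7 libraries, with COL1A1 and COL1A2 making up most of it and DCN at 0.406 RPKM or below. The 4 bile duct markers went both ways. KRT7 stood at 84.4 and 81.7 RPKM in Huh1 and at 0.660 and 0.572 in Huh7, while KRT19 stood at 12.0 and 20.5 in Huh1 and at 110.5 and 112 in Huh7, and SOX9 and EPCAM were also higher in Huh7. The part of these differences in the results below was not tested.

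At least 1 RPKM was reached in some library by 30 of the 43 ABC genes (69.8%, against 66.0% of all 18398 genes), and in all 4 libraries by 22. Transcripts of the ABC genes are long, with a median of 4921 nucleotides against 2716 for all genes with a length, so a given RPKM rests on more reads than it does for most genes. The RPKM values of the family summed to 1020 and 992 in Huh1 with NCsiRNA and CDCA8-1siRNA, and to 428 and 418 in Huh7. Subfamily C held most of the gap between the lines, with sums of 521 and 518 RPKM in Huh1 and 91.1 and 106 in Huh7. A single gene, ABCC2, made up 40.0% of the family's summed RPKM in Huh1 with NCsiRNA and 8.37% in Huh7 with NCsiRNA. Subfamily G was low throughout, with sums from 1.27 to 3.84 RPKM.

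**Figure D1:**
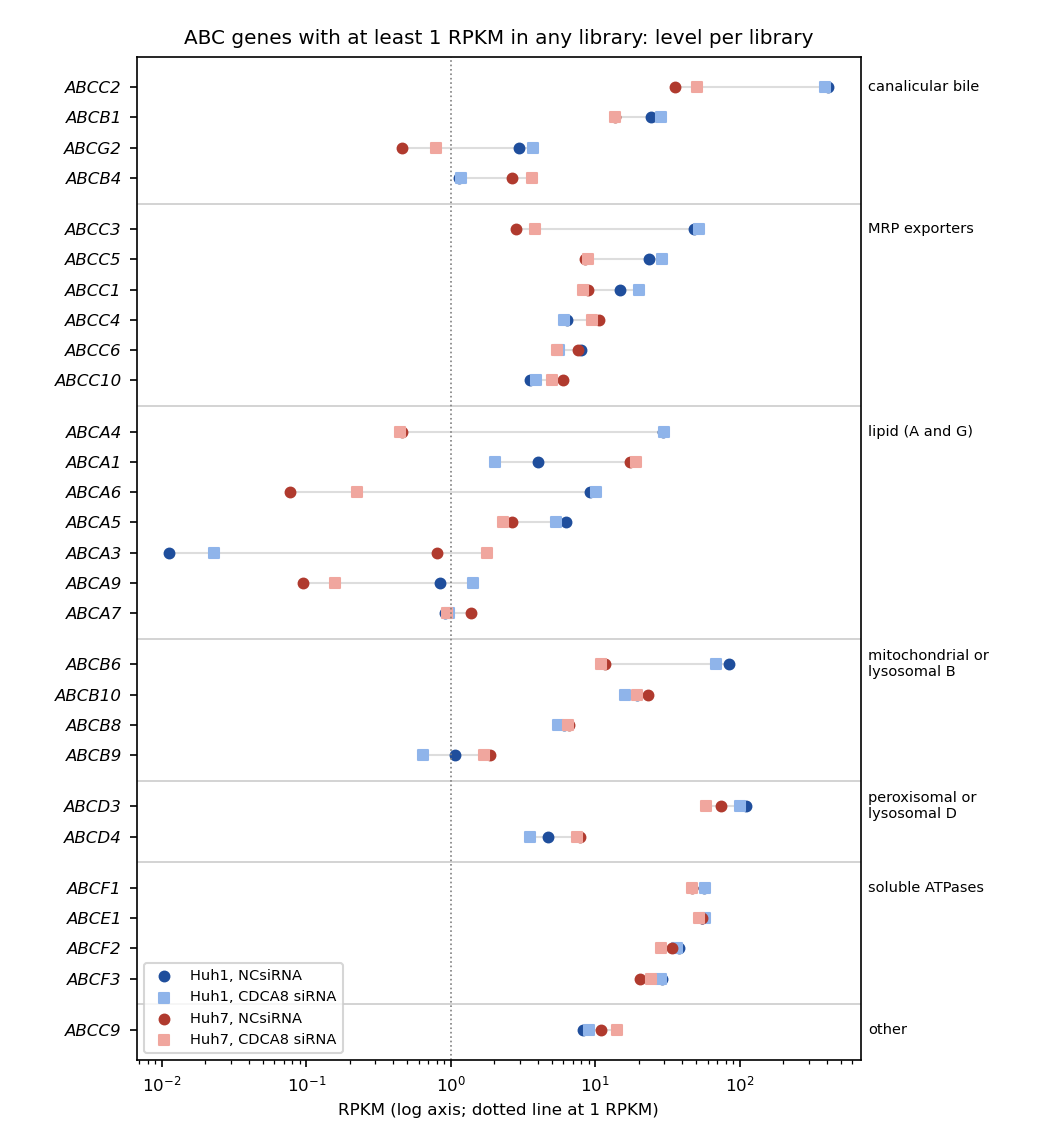
Level of 28 of the 30 ABC genes with at least 1 RPKM in any library, on a log axis, 1 point per library (dark blue Huh1 with NCsiRNA, light blue Huh1 with CDCA8-1siRNA, dark red Huh7 with NCsiRNA, light red Huh7 with CDCA8-1siRNA), grouped by role, with the dotted line at 1 RPKM. Blue and red points lie far apart for ABCC2, ABCC3, ABCA4, ABCA6 and ABCB6, while the 4 soluble ATPases stay between 20.4 and 57.6 RPKM in every library.

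The ABC genes differed more between the lines than between the siRNAs, with a median absolute log2 difference of 0.64 between the lines with NCsiRNA against 0.13 and 0.22 between the siRNAs in Huh1 and Huh7. Over all genes the same values were 0.55, 0.14 and 0.19. Of the 28 ABC genes with at least 1 RPKM in either NCsiRNA library, 7 were at least 2-fold lower in Huh7 (ABCC2, ABCC3, ABCC5, ABCG2, ABCA4, ABCA6 and ABCB6), where 10.2% of all genes were, and 2 were at least 2-fold higher, ABCA1 among them, where 17.0% of all genes were. With CDCA8-1siRNA in both lines, 10 of 29 were at least 2-fold lower in Huh7 against 10.1% of all genes, and 4 were higher against 17.4%. The 9 genes apart with NCsiRNA were all apart in the same direction with CDCA8-1siRNA, and ABCB1, ABCC1 and ABCA9 joined on the lower side and ABCB4 and ABCA3 on the higher. These counts are on the log2(RPKM + 1) scale, which understates the differences of low genes. The median log2 difference over all genes was 0.14 with NCsiRNA, and quantile normalization of the libraries took it to 0.00. Under that scaling 2 ABC genes were higher and 8 lower with NCsiRNA, against 13.8% and 12.6% of all genes. With CDCA8-1siRNA 2 were higher and 11 lower, in place of 4 and 10, against 14.1% and 12.6% of all genes. In bulk RNA, fewer cells with a transcript and less of it per cell cannot be told apart.

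limma was fitted to all 4 libraries with the siRNA as a covariate, which asks whether the line difference was alike under both siRNAs and leaves 1 residual degree of freedom. It called 26 of 30 ABC genes at a Benjamini-Hochberg adjusted p under 0.05, 10 higher and 16 lower in Huh7, where it called 71.2% of all 12148 genes tested. The ABC genes had a median line difference of -0.27 on the log2 scale, against 0.14 over all genes tested. The 4 that were not called were ABCB8, ABCA7, ABCE1 and ABCC6. With no filter on low values limma called 13 of 43, and the calls of ABCA1, ABCB4, ABCC1, ABCD3 and ABCD4 were among those lost. Of the 30, 7 reached 1 RPKM in 1 line only and so entered through the line where they were high, ABCG2, ABCA4 and ABCA6 among them. The calls of ABCB9, ABCC10 and ABCB10 were lost under quantile normalization, and those of ABCC9, ABCF2, ABCF3 and ABCB10 without the covariate. Since the background is this high, the sizes of the differences carry more than the count of calls, and they are given by role below.

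Promoter windows are shown for 4 members that were at least 2-fold apart between the lines under both siRNAs, 3 high in Huh1 (ABCC2, ABCB6 and ABCA6) and 1 high in Huh7 (ABCA1). They were chosen after their values were seen. ABCA4 and ABCC3, whose windows are not shown, lay further apart on the log2(RPKM + 1) scale. Each window runs 5′ to 3′ on the gene's strand, from 250 bases before to 50 after the RefSeq start in build GRCh38.p14. Capitals mark matches on either strand to any of 5 short motifs, and no marked matches overlap. The motifs were TATAAA (the TATA box), then GGGCGG (the GC box), then CCAAT (the CCAAT box), then CACGTG (an E-box) and lastly AGGTCA (the core of many nuclear receptor sites). The windows lie at chr10:99782390-99782689 on the plus strand, and at chr2:219218909-219219208, chr17:69141846-69142145 and chr9:104928106-104928405 on the minus strand.
ABCC2: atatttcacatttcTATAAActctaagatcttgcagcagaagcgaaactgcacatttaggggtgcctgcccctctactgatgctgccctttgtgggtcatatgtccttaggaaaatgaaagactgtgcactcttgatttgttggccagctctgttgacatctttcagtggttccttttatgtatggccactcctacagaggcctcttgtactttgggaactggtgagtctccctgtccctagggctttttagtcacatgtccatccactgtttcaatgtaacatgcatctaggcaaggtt
ABCB6: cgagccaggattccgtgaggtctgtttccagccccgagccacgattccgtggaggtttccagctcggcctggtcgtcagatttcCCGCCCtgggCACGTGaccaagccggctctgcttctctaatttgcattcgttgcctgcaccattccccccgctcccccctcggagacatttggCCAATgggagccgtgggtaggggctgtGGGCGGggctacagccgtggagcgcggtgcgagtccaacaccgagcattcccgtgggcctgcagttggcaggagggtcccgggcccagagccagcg
ABCA6: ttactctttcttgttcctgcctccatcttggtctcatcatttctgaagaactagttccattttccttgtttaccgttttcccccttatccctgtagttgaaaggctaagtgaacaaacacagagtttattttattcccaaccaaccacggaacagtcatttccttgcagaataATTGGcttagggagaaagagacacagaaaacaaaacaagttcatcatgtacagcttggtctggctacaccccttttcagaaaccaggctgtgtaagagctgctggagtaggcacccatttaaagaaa
ABCA1: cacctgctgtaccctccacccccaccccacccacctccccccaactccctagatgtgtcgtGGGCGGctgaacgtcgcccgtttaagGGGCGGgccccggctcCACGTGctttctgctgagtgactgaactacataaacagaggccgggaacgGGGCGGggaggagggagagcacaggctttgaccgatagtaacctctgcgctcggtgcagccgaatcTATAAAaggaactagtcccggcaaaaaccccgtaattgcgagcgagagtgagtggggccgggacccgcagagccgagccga
The ABCC2 window held 1 match, to the TATA box near its 5′ end, and the ABCA6 window 1, to the CCAAT box. The ABCB6 window held 4 matches, to the GC box, the CCAAT box and the E-box. The ABCA1 window held 5, to the TATA box, the GC box and the E-box. RefSeq gave 49 windows for 33 of the 43 ABC genes, and of these the GC box was in 24, the CCAAT box in 11, the E-box in 9, the TATA box in 7 and the nuclear receptor core in 3. Of all 35116 promoter windows, 45.0% held the GC box, 34.6% the CCAAT box, 7.26% the E-box, 11.5% the TATA box and 13.8% the nuclear receptor core. A match describes the letters only.

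Among the canalicular transporters, ABCC2 (also called MRP2), which secretes conjugated bilirubin and drug conjugates into bile, stood at 408 RPKM with NCsiRNA and 392 with CDCA8-1siRNA in Huh1, and at 35.8 and 50.8 in Huh7. It ranked 161 among all 18398 genes in Huh1 with NCsiRNA and 2271 in Huh7 with NCsiRNA. The ratio of RPKM was 11.4-fold lower in Huh7 with NCsiRNA (95% interval for the counting of reads 10.95 to 11.88) and 7.72-fold lower with CDCA8-1siRNA (7.46 to 7.99). limma gave a line difference of -3.20 ± 0.122 (SE) on the log2 scale, with an adjusted p of 8.55e-08. These intervals hold counting error only, and the SE joins how far the pair of siRNA conditions disagreed with the spread that limma fitted over all genes, so neither holds the spread between cultures.

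ABCG2, an exporter of drugs, urate and porphyrins that is also used as a marker of side population cells, stood at 2.97 and 3.73 RPKM in Huh1 and 0.463 and 0.791 in Huh7. Both Huh7 libraries lay below both Huh1 libraries, by 6.42-fold with NCsiRNA (4.26 to 10.3) and 4.71-fold with CDCA8-1siRNA (3.42 to 6.76). The limma line difference was -1.42 ± 0.151, with an adjusted p of 4.32e-05. ABCG2 reached 1 RPKM in Huh1 only and so entered the fit through the line where it was high. Over 6 other settings, no filter on low values among them, its adjusted p reached 0.0308.

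ABCB1 (P-glycoprotein), which expels many lipophilic drugs, and ABCB4, which flops phosphatidylcholine into bile, are neighbours on chromosome 7 and ordered the lines in opposite ways. ABCB1 stood at 24.1 and 28.7 RPKM in Huh1 and at 13.8 in both Huh7 libraries. ABCB4 stood at 1.14 and 1.18 RPKM in Huh1 and 2.66 and 3.67 in Huh7. The limma line difference was -0.89 ± 0.106 for ABCB1 (adjusted p 8.4e-05) and 0.93 ± 0.156 for ABCB4 (adjusted p 0.000652). With no filter on low values ABCB1 was called and ABCB4 was not (adjusted p 0.0649).

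The other 3 canalicular members did not reach 1 RPKM. ABCB11, the bile salt export pump, stood at 0.407 and 0.786 RPKM in Huh1, about 38 and 72 reads, and at 0.0687 and 0.0512 in Huh7, about 6 and 4 reads. ABCG5 and ABCG8, which pair into the sterol exporter of bile and intestine, stood at 0.122 RPKM or below in all libraries, with at most 4 reads. They are neighbours on chromosome 2 that start in opposite directions, and their promoter windows share 231 bases. Without ABCC2, the canalicular list summed to 28.7 and 34.5 RPKM in Huh1 and 17.0 and 18.5 in Huh7.

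Among the multidrug resistance protein (MRP) exporters, the gap was led by ABCC3 (MRP3), a basolateral exporter of glucuronides and bile salts. It stood at 48.04 and 52.2 RPKM in Huh1 and at 2.81 and 3.84 in Huh7. That made it 17.1-fold lower in Huh7 with NCsiRNA (14.8 to 19.8) and 13.6-fold lower with CDCA8-1siRNA (12.0 to 15.5). limma gave -3.57 ± 0.108, with an adjusted p of 2.37e-08.

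ABCC5 (MRP5), an exporter of cyclic nucleotides and nucleotide analogues, stood at 23.6 and 28.8 RPKM in Huh1 and 8.47 and 8.93 in Huh7. ABCC1 (MRP1), which exports glutathione conjugates, stood at 14.8 and 20.2 RPKM in Huh1 and 8.83 and 8.21 in Huh7. Both were called lower in Huh7, with limma differences of -1.48 ± 0.106 (adjusted p 3.79e-06) and -0.94 ± 0.135 (adjusted p 0.000265).

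ABCC4 (MRP4), a basolateral exporter of bile salts and cyclic nucleotides, stood at 6.34 and 6.11 RPKM in Huh1 and 10.6 and 9.50 in Huh7. ABCC10 (MRP7), a drug exporter, stood at 3.53 and 3.87 RPKM in Huh1 and 5.95 and 4.999 in Huh7. Both were called higher in Huh7, by 0.61 ± 0.110 (adjusted p 0.00104) and 0.46 ± 0.133 (adjusted p 0.0127). ABCC6, the liver transporter whose loss causes pseudoxanthoma elasticum, stood at 7.96 and 5.604 RPKM in Huh1 and 7.59 and 5.46 in Huh7, with a line difference of -0.05 ± 0.113 that was not called (adjusted p 0.726). ABCC11, known for its part in earwax type, stayed between 0.107 and 0.408 RPKM, with 6 to 25 reads, and ABCC12 was at or near 0.

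The lipid exporters of subfamilies A and G held, on the log2(RPKM + 1) scale, both the largest difference of the family in favour of Huh1 and the largest in favour of Huh7. ABCA4, known as the retinoid flippase of photoreceptors, stood at 29.4 and 29.8 RPKM in Huh1 and at 0.459 and 0.445 in Huh7. It was 64.0-fold lower in Huh7 with NCsiRNA (47.0 to 89.2) and 66.9-fold lower with CDCA8-1siRNA (48.9 to 93.6), with about 40 reads left in each Huh7 library. limma gave -4.40 ± 0.116 with an adjusted p of 1.11e-08. ABCA4 reached 1 RPKM in Huh1 only and so entered the fit through the line where it was high. Over 7 other settings, no filter on low values among them, its adjusted p reached 0.0302.

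ABCA1, which loads cholesterol and phospholipid onto apolipoprotein A-I, stood at 3.998 and 2.01 RPKM in Huh1 and at 17.3 and 19.0 in Huh7. It was 4.34-fold higher in Huh7 with NCsiRNA (3.96 to 4.77) and 9.47-fold higher with CDCA8-1siRNA (8.38 to 10.8). The limma line difference was 2.31 ± 0.184, with an adjusted p of 7.05e-06.

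ABCA8, ABCA9, ABCA6 and ABCA5 lie side by side on chromosome 17, with ABCA10 between the last pair. These genes are tied to lipid handling, with less known of what they carry, and they did not share 1 direction. ABCA6 stood at 9.13 and 10.1 RPKM in Huh1 and at 0.0774 and 0.226 in Huh7, the latter about 5 and 15 reads, which made it 118-fold lower with NCsiRNA (50.3 to 365) and 44.8-fold lower with CDCA8-1siRNA (26.4 to 78.7). ABCA9 stood at 0.840 and 1.43 RPKM in Huh1 and 0.0943 and 0.159 in Huh7. ABCA5 stood at 6.23 and 5.31 RPKM in Huh1 and 2.65 and 2.29 in Huh7. These 3 were called lower in Huh7. The limma differences were -3.21 ± 0.138 for ABCA6 (adjusted p 1.75e-07) and -0.96 ± 0.126 for ABCA5 (adjusted p 0.000147). For ABCA9 the limma difference was -0.91 ± 0.192 (adjusted p 0.00254, and 0.0555 with no filter). ABCA9 reached 1 RPKM in 1 library only, Huh1 with CDCA8-1siRNA. ABCA6 also entered the fit through Huh1 only, and its adjusted p reached 0.0302 over 7 other settings, no filter among them. ABCA5 missed the 2-fold threshold on the log2(RPKM + 1) scale in both comparisons, while its ratio of RPKM was 2.35-fold lower with NCsiRNA (2.00 to 2.77). ABCA8 leaned the other way at low levels, with 0.0522 and 0.0265 RPKM in Huh1 (4 and 2 reads) and 0.459 and 0.648 in Huh7 (about 32 and 45 reads), and did not enter the fit.

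ABCA3, which loads surfactant lipid into lamellar bodies of the lung, stood at 0.0113 and 0.0229 RPKM in Huh1, 1 and 2 reads, and at 0.806 and 1.77 in Huh7. The ratio was 71.5 with NCsiRNA, with a counting interval of 12.4 to 2859, and the limma difference was 1.14 ± 0.212 (adjusted p 0.00127). ABCA3 passed the filter on low values only through 1 Huh7 library, and with no filter it was not called (adjusted p 0.0861). ABCA7, a phospholipid exporter of brain and immune cells, stood at 0.910 and 0.978 RPKM in Huh1 and 1.39 and 0.947 in Huh7, and was not called (adjusted p 0.466, limma difference 0.15, which turned to -0.20 under quantile normalization). ABCG1, a partner of ABCA1 in cholesterol export, stood at 0.0168 and 0.00422 RPKM in Huh1, 1 read or fewer, and at 0.810 and 0.272 in Huh7, about 30 and 10 reads. ABCA12, the lipid loader of skin lamellar granules, ABCA13 and ABCG4, a sterol exporter of brain, held at most about 5 reads in any library.

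**Figure D2:**
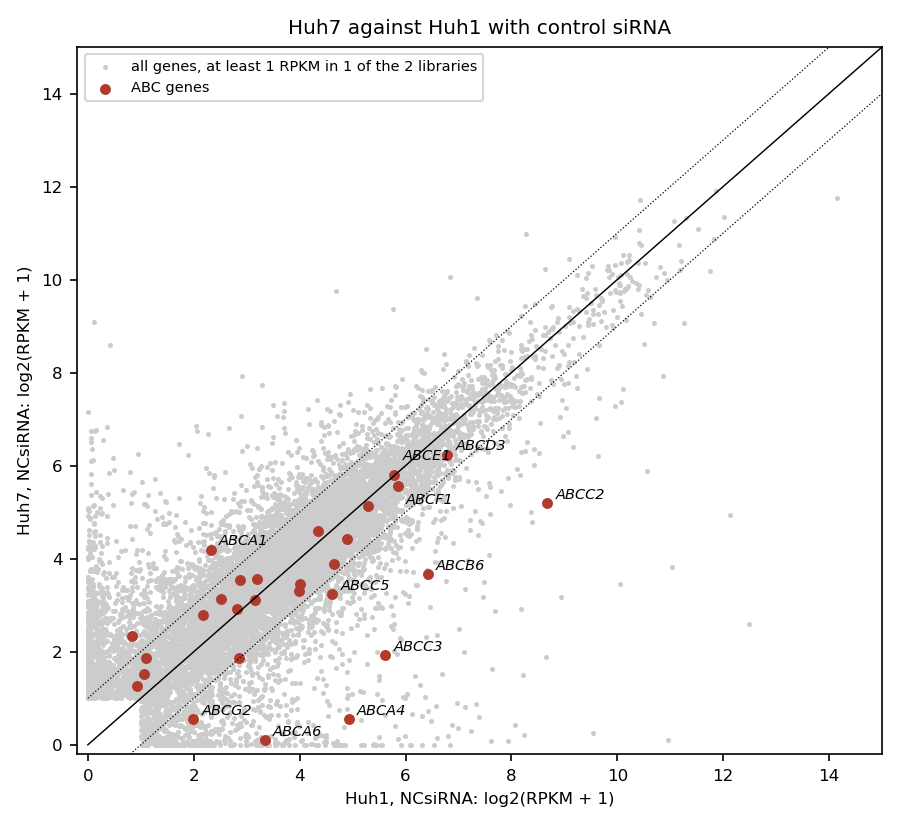
Each gene's level in Huh7 against its level in Huh1, both with NCsiRNA and as log2(RPKM + 1), for the 11896 genes with at least 1 RPKM in either library (grey) and the 28 ABC genes among them (red), with lines of equal level (solid) and 2-fold difference (dotted). ABCA4, ABCA6, ABCC3, ABCC2 and ABCB6 lie far below the lower dotted line, ABCA1 lies above the upper one, and ABCE1 lies on the line of equal level.

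Among the short members of subfamily B, which serve mitochondria and lysosomes, ABCB6, which sits in mitochondria, endosomes and the cell surface and has been tied to porphyrin transport, stood at 84.6 and 68.1 RPKM in Huh1 and at 11.7 and 10.9 in Huh7. It was 7.22-fold lower in Huh7 with NCsiRNA (6.54 to 8.001) and 6.22-fold lower with CDCA8-1siRNA (5.603 to 6.92), and the limma difference was -2.64 ± 0.0996 (adjusted p 7.95e-08). The others of this group differed far less. ABCB10, a mitochondrial transporter needed for heme synthesis, stood at 19.4 and 16.0 RPKM in Huh1 and 23.1 and 19.6 in Huh7.

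limma called ABCB10 higher in Huh7 by 0.26 ± 0.0972 (adjusted p 0.0396, and 0.0357 to 0.196 over 7 other settings, of which 5 did not call it). ABCB9, a lysosomal peptide transporter, stood at 1.08 and 0.646 RPKM in Huh1 and 1.88 and 1.70 in Huh7, and was called higher (0.59 ± 0.165, adjusted p 0.0107). ABCB8, a subunit of a mitochondrial potassium channel, stood at 6.03 and 5.55 RPKM in Huh1 and 6.56 and 6.49 in Huh7. Its line difference of 0.15 was not called (adjusted p 0.268), and it turned to -0.02 under quantile normalization.

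In subfamily D, ABCD3 (PMP70), which brings branched-chain acyl-CoA and bile acid precursors into peroxisomes, ranked second among the members in both Huh1 libraries and first in both Huh7 libraries, at 109.6 and 100.1 RPKM in Huh1 and 74.4 and 57.9 in Huh7. It was called lower in Huh7, with a limma difference of -0.67 ± 0.091 (adjusted p 0.000191). ABCD4, a lysosomal transporter of cobalamin, stood at 4.71 and 3.55 RPKM in Huh1 and 7.82 and 7.46 in Huh7 and was called higher (0.76 ± 0.125, adjusted p 0.00059). ABCD2 stayed at 0.153 RPKM or below.

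The 4 ATPases without membrane domains differed little between the lines. ABCE1, which splits ribosomes for recycling, stood at 54.4 and 57.4 RPKM in Huh1 and 54.6 and 51.9 in Huh7. ABCF1, a partner of the initiation factor eIF2, stood at 56.8 and 57.6 RPKM in Huh1 and 46.6 and 46.7 in Huh7. Their relatives followed, with ABCF2 at 38.0 and 36.5 RPKM in Huh1 and 34.1 and 28.7 in Huh7, and ABCF3 at 28.8 and 28.4 in Huh1 and 20.4 and 24.4 in Huh7. The limma line differences were -0.07 for ABCE1 (adjusted p 0.519), -0.29 for ABCF1 (adjusted p 0.0152), -0.25 for ABCF2 (adjusted p 0.0458) and -0.34 for ABCF3 (adjusted p 0.016). These sizes stayed under the median absolute line difference of all genes tested, 0.55. ABCC9, a sulfonylurea receptor that regulates potassium channels, stood at 8.19 and 9.09 RPKM in Huh1 and 10.9 and 14.1 in Huh7, and was called higher (0.47 ± 0.111, adjusted p 0.00446). ABCC8, the sulfonylurea receptor of beta cells, was at or near 0.

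**Figure D3:**
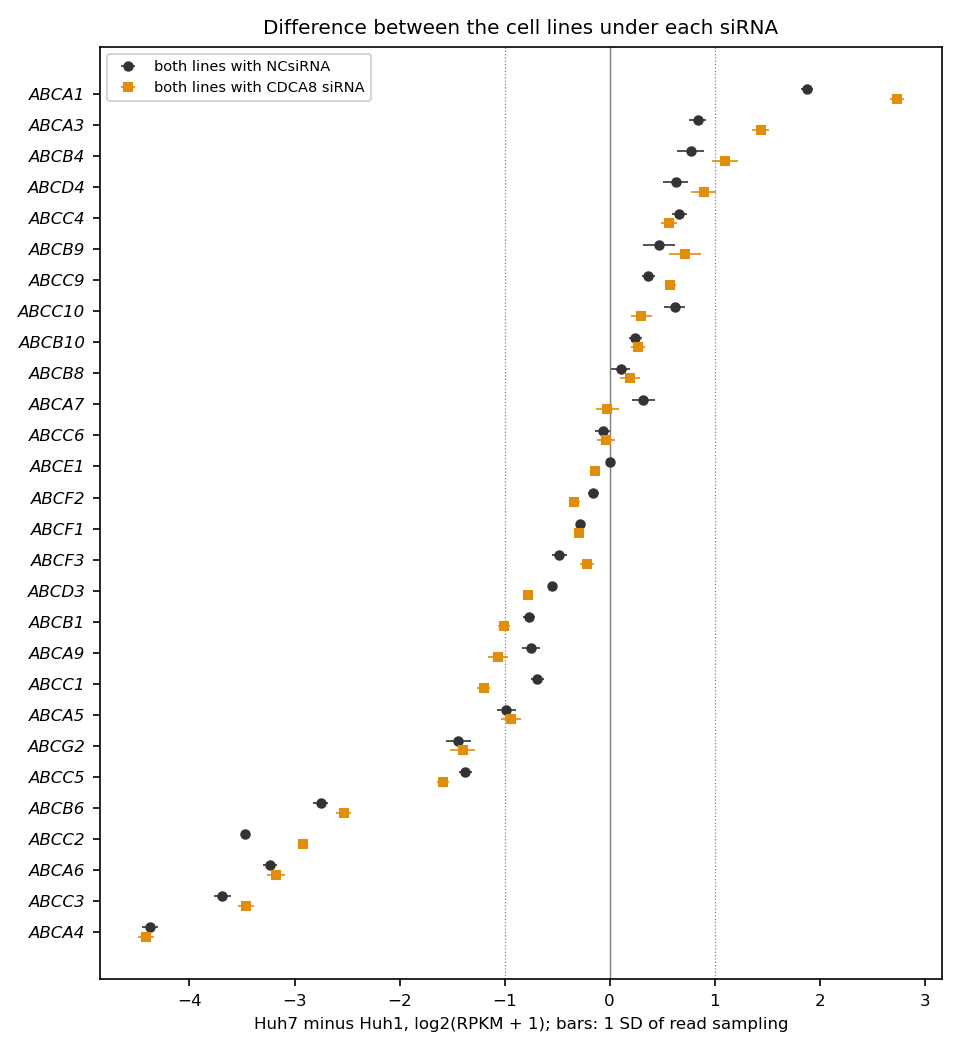
Difference in log2(RPKM + 1) between Huh7 and Huh1 for 28 of the 30 ABC genes, with NCsiRNA in both lines (black circles) and with CDCA8-1siRNA in both (orange squares); bars are 1 SD of read sampling, without culture variation, and dotted lines mark 2-fold. The pair of points of a gene lie close together next to the range of the family, from -4.38 for ABCA4 to 1.88 for ABCA1 with NCsiRNA, and ABCA1 shows the widest gap between its points, 1.88 and 2.74.

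The differences of the ABC genes with knockdown of CDCA8 were smaller than those between the lines. On the log2(RPKM + 1) scale, no ABC gene was 2-fold apart between CDCA8-1siRNA and NCsiRNA among 27 tested in Huh1, where 0.494% of all genes were, or among 26 tested in Huh7, where 1.57% were. Shares this low amount to under 1 gene of a list this long, so the counts of 0 show nothing particular to the ABC genes. As a plain ratio of RPKM, ABCA3 was 2.20-fold higher in Huh7, and ABCA1 stood at 0.503 of its control level in Huh1, just short of 2-fold. The median difference of the ABC genes was 0.02 in Huh1 and -0.08 in Huh7 on the log2(RPKM + 1) scale, against 0.02 and 0.03 over all genes. The ABC genes ranged from -0.73 (ABCA1) to 0.42 (ABCC1) in Huh1 and from -0.41 (ABCC6) to 0.62 (ABCA3) in Huh7. With no replicate library, the only spread at hand is the SD from sampling of reads, which is a lower limit of the error.

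limma was also fitted for the siRNA over both lines with the line as a covariate, so it asks whether both lines moved alike. It called 1 of 23 ABC genes, where it called 10.2% of all 10357 genes tested. The gene was ABCC6, which fell in both lines, to 5.604 RPKM from a control level of 7.96 in Huh1 and to 5.46 from 7.59 in Huh7. The ratios of RPKM were 0.704 (0.621 to 0.798) and 0.719 (0.629 to 0.821). The limma difference was -0.43 ± 0.114, with an adjusted p of 0.0454, just under the threshold. Across 7 other settings its adjusted p ran from 0.00856 to 1.00, and 3 of them did not call it. ABCC6 has 2 pseudogene copies in RefSeq, ABCC6P1 and ABCC6P2, whose sequence is nearly that of its first exons, and how reads were split among the copies is not given in the sources used here. Its neighbour on chromosome 16, ABCC1, showed differences of 0.42 in Huh1 and -0.09 in Huh7.

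By role, no short member of subfamilies B and D passed the test. In signs alone, 55.1% of all genes in Huh1 and 54.5% in Huh7 were on the higher side with CDCA8-1siRNA. All 5 of the short members in subfamily B had a lower value with CDCA8-1siRNA in Huh7 and 4 of 5 in Huh1, with medians of -0.09 and -0.26 against 0.03 and 0.02 over all genes. ABCB10, which has 3 pseudogene copies in RefSeq, had the nearest values in both lines, -0.26 ± 0.064 (SD of read sampling) in Huh1 and -0.23 ± 0.062 in Huh7, and an adjusted limma p of 0.15. ABCB6 differed by -0.31 ± 0.036 in Huh1 and -0.09 ± 0.091 in Huh7. In subfamily D, the value was lower in 2 of 2 tested members in Huh1 and 3 of 3 in Huh7, with ABCD3 at -0.13 ± 0.029 and -0.36 ± 0.038 (adjusted limma p 0.126). These are counts of signs, and the groups were not tested.

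No member of the canalicular list was called either. In Huh1, 3 of 4 tested members had a higher value, with a median of 0.13, and in Huh7 3 of 3, with a median of 0.35. Under quantile normalization these counts were 2 of 4 and 2 of 3, and the list was not tested as a group. ABCC2 carried the largest of these, 0.49 ± 0.036 in Huh7, from 35.8 to 50.8 RPKM or about 2536 to 3614 reads, while it differed by -0.06 ± 0.012 in Huh1. ABCG2, with 178 and 220 reads in Huh1 and 25 and 44 in Huh7, had ratios of 1.26 (1.02 to 1.54) and 1.71 (1.02 to 2.92). ABCB4 differed by 0.35 ± 0.121 in Huh7 and ABCB1 by 0.24 ± 0.049 in Huh1, and the values of each in the other line, 0.03 for ABCB4 and 0.00 for ABCB1, changed sign with the scaling.

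The MRP exporters and the lipid exporters lay on both sides. ABCC3 was on the higher side in both lines, 0.12 ± 0.032 and 0.34 ± 0.103 (adjusted limma p 0.216), as was ABCC5, 0.28 ± 0.043 and 0.07 ± 0.073 (adjusted limma p 0.347). ABCA5 was on the lower side in both, at -0.20 ± 0.078 and -0.15 ± 0.103 (adjusted limma p 0.425). ABCA1 stood at a ratio of 0.503 (0.434 to 0.581) in Huh1 and of 1.10 (1.04 to 1.16) in Huh7, so that the fit over both lines gave an adjusted p of 0.329. ABCA3 had the highest ratio of the tested members in Huh7, 2.20 (1.63 to 3.001), or about 65 against 144 reads. ABCC9 was on the higher side in both lines, 0.13 ± 0.059 and 0.34 ± 0.053 (adjusted limma p 0.212).

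**Figure D4:**
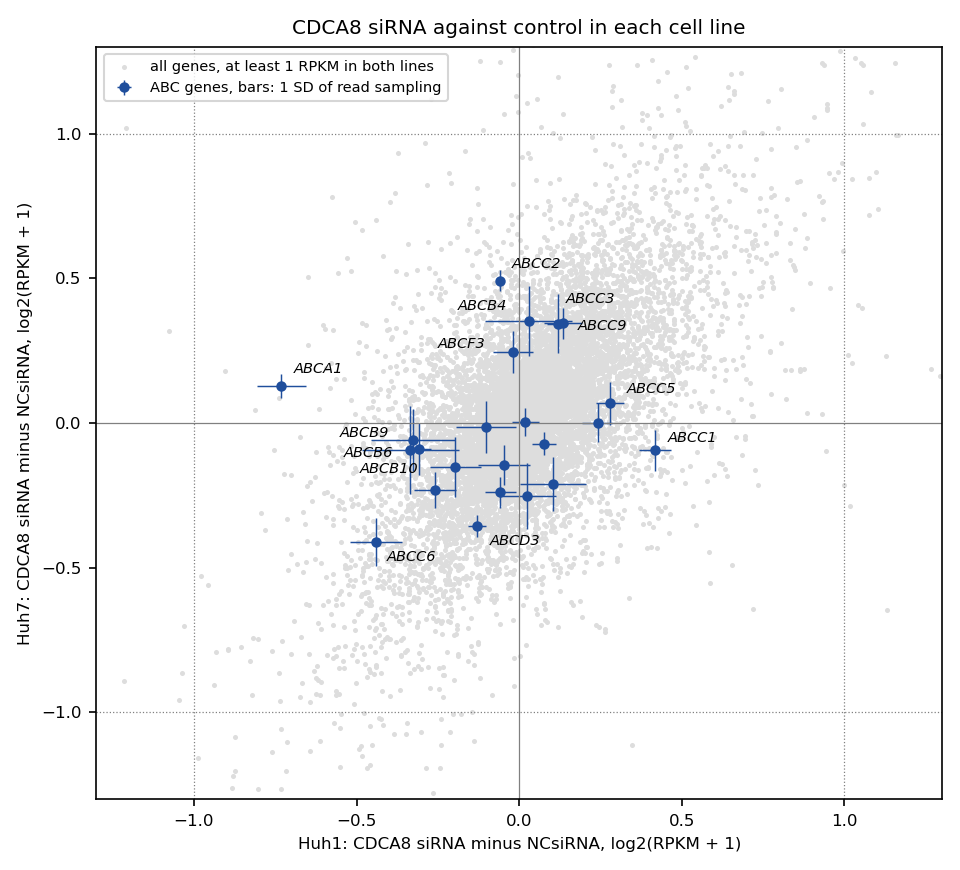
Difference in log2(RPKM + 1) between CDCA8-1siRNA and NCsiRNA in Huh7 against that in Huh1, for genes with at least 1 RPKM in both lines (grey; 46 genes lie outside the axes) and the 23 ABC genes among them (blue, bars 1 SD of read sampling); dotted lines mark 2-fold. All ABC genes lie inside the 2-fold lines, ABCC6 is low on both axes, and ABCA1, ABCC1 and ABCC2 lie away from the diagonal.

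Some low members had wide ratios that rest on few reads. ABCB5, a transporter known from melanoma and limbal stem cells, stood at 0.199 and 0.911 RPKM in Huh7, about 7 and 32 reads (ratio 4.58, 1.97 to 12.2), and at 0.0912 and 0.0652 in Huh1. ABCG1 stood at 0.810 and 0.272 RPKM in Huh7, about 30 and 10 reads (ratio 0.336, 0.145 to 0.697). ABCB11 stood at 0.407 and 0.786 RPKM in Huh1 (ratio 1.93, 1.28 to 2.93). These 3 stayed under 1 RPKM and entered no count above.

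Genes that work beside the transporters were also read. With the knockdown, limma called 10.2% of all 10357 genes tested. Among 10 tested partners in bile salt, phospholipid and sterol traffic, it called 2, APOA1 among them. APOA1, the acceptor of the lipid that ABCA1 exports, fell from 43.0 to 30.7 RPKM in Huh1, and in Huh7 from 20.4 to 10.997 (-0.65 ± 0.11, adjusted p 0.00962). Of 14 transcription factors known to act on ABC genes, 2 were called, both lower. In lists this short, neither count of 2 stands apart from the share over all genes. NR1H4 (the bile acid receptor FXR, which drives ABCB11) fell to 22.1 RPKM from 41.9 in Huh1 and to 3.44 from 6.65 in Huh7 (-0.84 ± 0.10, adjusted p 0.00251). HNF4A, a master regulator of hepatocyte genes, fell from 86.1 to 59.1 and from 55.4 to 38.8 RPKM (-0.52 ± 0.09, adjusted p 0.00878). It is also 1 of the 10 hepatocyte markers, of which 9 were called lower, with a median of -0.52. The part of that fall in the values of the transporters was not tested.

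Of 6 peroxisome partners, limma called 1 with the knockdown, where it called 10.2% of all genes. PEX19, the chaperone of peroxisomal membrane proteins, fell from 22.1 to 17.6 and from 23.4 to 13.0 RPKM (-0.55 ± 0.13, adjusted p 0.0277). None of the 7 ribosome partners of ABCE1 and the ABCF proteins was called, and their median difference was 0.04. Between the lines, limma called 10 of 11 bile and sterol partners (3 higher, 7 lower in Huh7), 13 of 15 transcription factors (3 higher, 10 lower), 4 of 6 peroxisome partners (1 higher, 3 lower) and 6 of 7 ribosome partners (4 higher, 2 lower), where it called 71.2% of all genes. NR1I2 (PXR), a xenobiotic receptor that acts on ABCB1 and ABCC2, stood at 3.43 and 3.92 RPKM in Huh1 and was listed at 0 in both Huh7 libraries.

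Of the family members with other names, TAP1 and TAP2, which carry peptides for antigen presentation, stood at 7.39 and 8.90 and at 14.2 and 14.5 RPKM in Huh1, and at 5.72 and 7.06 and at 7.07 and 8.33 in Huh7. Neither was called with the knockdown, and limma called both lower in Huh7 (adjusted p 0.0331 and 0.000165). CFTR, the chloride channel of the family, stood at 0.0122 and 0.0494 RPKM in Huh1 and at 1.26 and 2.32 in Huh7, and was called higher there (limma adjusted p 0.000236). It reached 1 RPKM in Huh7 only and so entered the fit through the line where it was high.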

How the data were processed

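The labels map each of the 4 libraries to a cell line and an siRNA, and dose, time and siRNA variant come from the study's methods. Total RNA was taken with Trizol and libraries were made with a TruSeq RNA kit, per the labels. The submitters' processing notes name CASAVA 1.8.2, TopHat2 2.0.9 and build hg19. The authors deposited 1 RPKM value per RefSeq transcript and library, with no unit stated: it was deduced from the values. The counting tool, the annotation, any use of strand and any filter are not given in the sources used here, so genes that overlap on opposite strands cannot be told apart.

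Differences were taken on log2(RPKM + 1), with a pseudocount of 1 RPKM, over genes with at least 1 RPKM in 1 of the libraries compared, and counted at 2-fold. limma 3.58.1 in R 4.3.3 (lmFit and eBayes, letting the prior variance follow the mean) was fitted to all 4 libraries, with Benjamini-Hochberg adjustment over all genes tested. The siRNA fit took genes with at least 1 RPKM in 1 library of each line, and the line fit those with at least 1 RPKM in any library. Neither fit measures the spread between cultures. The study's own test is not described in enough detail to repeat. The limma script was tested on simulated data. Reads behind a gene came from its RPKM, its GENCODE 29 transcript length and the library's depth, 12201000 to 13381500 reads, and gave the 95% intervals and sampling SDs, which cover counting error only. Only 16.2% to 18.7% of low values fell on whole reads. Summed over all genes with a length, reads rebuilt this way came to 1.11 to 1.15 times the depth. The read numbers are thus approximate and may be too high, and the intervals too narrow. Promoter windows came from RefSeq on GRCh38.p14. Gene positions on hg19 are not used here.

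The ABC genes follow from their symbols. All of them enter the counts, and those with at least 1 RPKM are given by their value in every library, except for some items that are not reported here. The family as a subject, its roles and the partner lists were chosen with earlier results of these data known. Another pseudocount, other filters, quantile and upper quartile scaling, no covariate and no trend were tried as alternatives, and the plain ratio of RPKM was added after seeing the data.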

Additional observations from a re-analysis of the deposited data

Results flagged for a closer look

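Among the 23 ABC genes tested in both lines, 6 given here moved one way with CDCA8-1siRNA against NCsiRNA in Huh1 and the other way in Huh7. They were picked for their opposite signs. The share of all genes with opposite signs was not computed, so the count shows nothing particular to the ABC genes. With 1 library for each line and siRNA, none of these differences between the lines was tested against replicates, and the only error at hand is the SD from sampling of reads. On the log2(RPKM + 1) scale, ABCC2 differed by -0.0600 in Huh1 and 0.49 in Huh7, a gap of 14.4 sampling SDs. ABCA1 differed by -0.73 in Huh1 and 0.13 in Huh7, a gap of 10.1 SDs, and ABCC1 by 0.42 and -0.09, a gap of 5.97 SDs. ABCF3 differed by -0.0192 and 0.25 (2.77 SDs), ABCE1 by 0.0755 and -0.07 (2.71 SDs) and ABCC10 by 0.10 and -0.21 (2.28 SDs). All 6 had opposite signs under both scalings tried.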

How the results depend on the processing

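No replicate could be left out, since each line and siRNA had 1 library. No paired analysis was possible because the groups share a single replicate number, beyond the pairing by cell line or siRNA that the covariate of each fit already makes. With CDCA8-1siRNA in Huh7, 1 ABC gene (ABCA3) was 2-fold apart from NCsiRNA with a pseudocount of 0.1 RPKM and 1 with the plain ratio, where the main count was 0. With CDCA8-1siRNA in both lines, 9 genes were 2-fold apart between the lines at a minimum of 5 RPKM, against 14, with fewer genes tested. The siRNA fit called 0 ABC genes with no filter on low values, 0 with no covariate and 0 without a trend, against 1 (ABCC6). The adjusted p of ABCC6 ran from 0.00856 to 1.00 over 7 alternatives. The line fit called 13 with no filter, against 26. Over all genes, no filter took the siRNA calls from 1061 to 0 (2050 genes had an unadjusted p under 0.05) and the line calls from 8654 to 5433, and no covariate took the siRNA calls to 0 (89 genes had an unadjusted p under 0.05). The cause was not tested. Signs turned for small differences. Under upper quartile scaling the siRNA differences of ABCF1 and ABCE1 became -0.0050 and -0.0147. Under quantile normalization the line differences of ABCB8 and ABCA7 became -0.0222 and -0.201. Of the members' recomputed log2 differences between 2 libraries, 548 stayed within the 95% range of read sampling and 86 moved beyond it. The 548 include 84 with the filter at 5 RPKM and 110 with no filter, and a filter cannot change such a difference. Of the 86, 26 moved with no pseudocount, 24 with the smaller one, 28 under quantile normalization and 8 under upper quartile scaling. Members with under 50 reads in a library, such as ABCB11 in Huh7 and ABCG1, are limited by depth.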

Other observations

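The levels of the ABC genes followed each other closely within a line and less so between lines. Across the 30 ABC genes with at least 1 RPKM in any library, Pearson's r of log2(RPKM + 1) between NCsiRNA and CDCA8-1siRNA was 0.993 in Huh1 and 0.988 in Huh7, and 0.681 between Huh1 and Huh7 with NCsiRNA. Over all 12148 such genes the same values were 0.992, 0.983 and 0.804. These are correlations across genes, which are not independent replicates, and libraries of 1 line share its genome and gene lengths.

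Some ABC genes have pseudogene copies named in RefSeq, among them 3 for ABCB10, 2 each for ABCC6, ABCE1 and ABCF2, and 1 for ABCA3. Their values are less certain, since the sources used here do not say how reads that match several copies were counted.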
